A study of Mus musculus with 8 samples.

Results

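The aldo-keto reductases are oxidoreductases that use NADPH or NADH to reduce aldehydes and ketones. The 9 genes described here, Akr1a1, Akr1b3, Akr1b7, Akr1b8, Akr1c12, Akr1c13, Akr1c14, Akr1c18 and Akr1e1, were chosen by symbol from the spots of a mouse expression array after results of the same comparison of lines were known. The large difference of Akr1c14 between the lines was among those results. The differences between lines given below are therefore a description and support nothing by themselves. Of the 9 genes, 8 had at least 1 probe and Akr1c13 had none. They are 8 of the 26853 gene names on the array and had 12 of its 41174 probes. Akr1a1 appears in the files under its older name Akr1a4.

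CT26 is a colon cancer line of Balb/c mice, labelled as male and as a poor former of liver metastases. CT26-FL3 is a highly metastatic derivative obtained by 3 selection rounds in the liver, in which lesions were excised, digested with enzymes and grown briefly to remove stromal cells. Both lines share the Balb/c strain and grew in DMEM with 10% fetal bovine serum, and each was measured on 4 one-colour Agilent arrays. Whether the 4 samples of a line were grown separately is not stated, and p-values then rest on a spread that may be technical. CT26-FL3 is a single selected line.

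Members of the 1A and 1B branches reduce sugars and reactive aldehydes. Akr1b3, aldose reductase, makes sorbitol from glucose in the polyol pathway. Members of the 1C branch are mainly hydroxysteroid dehydrogenases, which switch steroid hormones between active and inactive forms, and some also act on prostaglandins. Several members are known targets of the transcription factor NRF2, which binds the antioxidant response element when cells meet electrophiles or oxidants.

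A probe was taken as above the limit on an array when its intensity, in the scanner's arbitrary units, exceeded 2.6 times a median SD. That SD is the one given for each negative control spot, with the median taken over these spots. It is not the SD among their intensities. This limit lay between 16.9 and 23.2. Probes that exceeded it on 4 or more of the 8 arrays were kept, 23068 in all and 9 from 7 members. The 12 probes fell into 6 above the limit on all arrays, 3 on no array and 3 in between. Values were tested as log2 intensities after subtraction of each array's 75th percentile, which was 808 to 1151 units. Between 52.8% and 58.2% of probes were above the limit on an array, and the number of arrays limits the precision. Levels are not set against each other between probes, since probes differ in how well they bind.

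Markers were checked first, at the brightest probe of each gene. Of all genes at that probe 48.8% passed the limma threshold used below, 23.8% higher and 25% lower in CT26-FL3. Epcam, Cdh1, Krt19, Cdx1 and Vil1, of 13 colon epithelial markers, stayed below the limit throughout. Krt8, Krt18, Krt20, Cdx2, Lgals4 and Car1 exceeded it on all arrays. Of these 6, the ones tested, 5 were higher in CT26-FL3, all but Car1. The summed intensity of the 13 was 1540 to 2315 in CT26 and 3224 to 3538 in CT26-FL3. Of the hepatocyte markers, Alb, Apoa2 and Cps1 stayed below the limit throughout, while Apoa1 and Tat exceeded it on all arrays. Of 4 tested 1 was higher (Apoa1) and 0 were lower, and the sum was 207 to 240 in CT26 and 209 to 240 in CT26-FL3. Among macrophage markers Adgre1, Clec4f, Cd163 and Ptprc stayed below the limit, while Cd68, Marco and C1qb exceeded it on all arrays. Of 6 tested 1 was higher (Cd68) and 1 lower (Lyz2), with sums of 587 to 854 and 727 to 780. Among endothelial markers Pecam1, Cdh5 and Kdr stayed below the limit, while Stab2 and Vwf exceeded it on all arrays. Of 3 tested 1 was higher (Tie1) and 0 lower, with sums of 153 to 198 and 173 to 186. Lyz2 exceeded the limit on the CT26 arrays alone and Tie1 on the CT26-FL3 arrays alone. Each was kept through 1 line, so it had to differ. Of the fibroblast markers Lum, Des and Reln were above the limit on no array. The 7 tested exceeded it on all arrays, 1 was higher and 5 were lower, with sums of 234849 to 286209 and 218919 to 230219. Dcn was the higher one, at 1436 to 1974 units in CT26 and 14248 to 16135 in CT26-FL3. All sums here are of unscaled intensities over unlike probes, so bright probes and bright arrays weigh most. Col1a2, not past the threshold, alone read 186318 to 216733 in CT26 and 171409 to 182912 in CT26-FL3. The part of these markers in the results below was not tested. In RNA of whole cultures, fewer cells of a type and less RNA per cell cannot be told apart.

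In mouse, 5 of the 9 genes lie in 1 run of aldo-keto reductase genes on chromosome 13. In the order of protein-coding genes in RefSeq's GRCm38.p6 annotation the run is Akr1c14, Akr1c18, Akr1c13, Akr1c19, Akr1c12, Akr1c6, Akr1c20, Akr1c21 and Akr1e1. A second run on chromosome 6 holds Akr1b3, Akr1b8, Akr1b10 and Akr1b7. The first members of the chromosome 13 run, Akr1c14 and Akr1c18, are next to each other, and their RNAs differed in opposite directions between the lines. The 250 bases before their starts, from RefSeq on GRCm38.p6, are shown for this reason, each written 5′ to 3′ on the strand of its gene, with capitals marking bases -35 to -25, the window in which a TATA box usually lies. Akr1c14 is on the plus strand (chr13:4059341-4059590) and Akr1c18 on the minus strand (chr13:4150647-4150896).
Akr1c14: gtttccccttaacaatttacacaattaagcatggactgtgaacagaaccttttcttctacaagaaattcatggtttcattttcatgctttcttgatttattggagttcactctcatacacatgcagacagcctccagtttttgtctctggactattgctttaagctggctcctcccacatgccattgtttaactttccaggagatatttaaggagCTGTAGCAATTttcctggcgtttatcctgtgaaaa
Akr1c18: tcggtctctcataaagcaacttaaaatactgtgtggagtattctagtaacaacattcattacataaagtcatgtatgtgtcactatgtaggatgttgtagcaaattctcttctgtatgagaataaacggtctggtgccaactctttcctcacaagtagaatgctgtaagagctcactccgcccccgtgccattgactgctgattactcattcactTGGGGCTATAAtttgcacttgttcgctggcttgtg
The pair of stretches was 57.7% identical over 274 aligned columns. Values of this order are not particular to neighbours. The Akr1c14 stretch was 56.1% identical to that of Akr1b7 on chromosome 6 (255 columns). To that of Akr1a1 on chromosome 4 it was 52.6% identical (270 columns). The capital window of Akr1c18 ended in the letters of a TATA-like run, and that of Akr1c14 read CTGTAGCAATT. The Akr1c14 stretch has the letters atatttaa shortly before its capitals, so this contrast depends on where the window begins. Whether either run is used was not tested.

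Akr1c12 and Akr1c13 show how close members of the run can be. Their stretches, Akr1c12 at chr13:4279400-4279649 on the minus strand and Akr1c13 at chr13:4190937-4191186 on the plus strand, are printed with capitals at the bases that, within the aligned columns, differ from the other gene or have no partner in it. The unaligned ends are in lower case.
Akr1c12: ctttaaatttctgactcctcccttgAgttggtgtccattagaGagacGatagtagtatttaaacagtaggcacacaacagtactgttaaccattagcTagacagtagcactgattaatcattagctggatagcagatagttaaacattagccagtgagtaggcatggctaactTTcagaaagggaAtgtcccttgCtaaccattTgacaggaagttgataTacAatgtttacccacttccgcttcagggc
Akr1c13: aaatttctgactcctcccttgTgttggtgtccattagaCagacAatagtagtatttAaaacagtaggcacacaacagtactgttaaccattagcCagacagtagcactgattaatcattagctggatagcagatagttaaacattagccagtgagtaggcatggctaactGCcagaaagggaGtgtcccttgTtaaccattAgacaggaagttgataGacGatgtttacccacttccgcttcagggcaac
Of 247 aligned columns 235 were identical (95.1%). Whether a probe of one such gene also binds RNA of the other was not tested here, so values of Akr1c12 are uncertain in this respect.

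Promoter stretches were found for 8 of the 9 members, the exception being Akr1b3. On either strand, the antioxidant response element core TGACNNNGC was in 0 of the 8 stretches and in 10.2% of the 32851 stretches of all genes. The AP-1 motif TGANTCA was in 0 of 8 and in 6.75% of all, and a match to one motif can overlap a match to the other. TATAAA was in 1 of 8, that of Akr1b8, and in 12.4% of all. These counts say only which letters lie in these windows.

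Of the 9 kept member probes, 5 passed the limma threshold of an adjusted p of 0.05 (1 with the higher level in CT26-FL3 and 4 with the lower) while 4 missed it. Of all 23068 kept probes 48.3% passed, 22.9% higher and 25.4% lower. The arrays of the lines did not overlap for the same 5 member probes, against 46% of all kept probes (21.9% with CT26-FL3 above and 24.2% with it below). Nothing is read from the members' count, since this contrast was used in choosing them. The median difference was -0.07 over the 9 member probes and -0.02 over all kept probes, on the log2 scale with CT26 subtracted from CT26-FL3. A change of at least 2-fold was seen for 2 member probes and for 4.87% of all kept probes. Akr1c14 is kept through its CT26 arrays alone, so it had to differ.

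**Figure D1:**
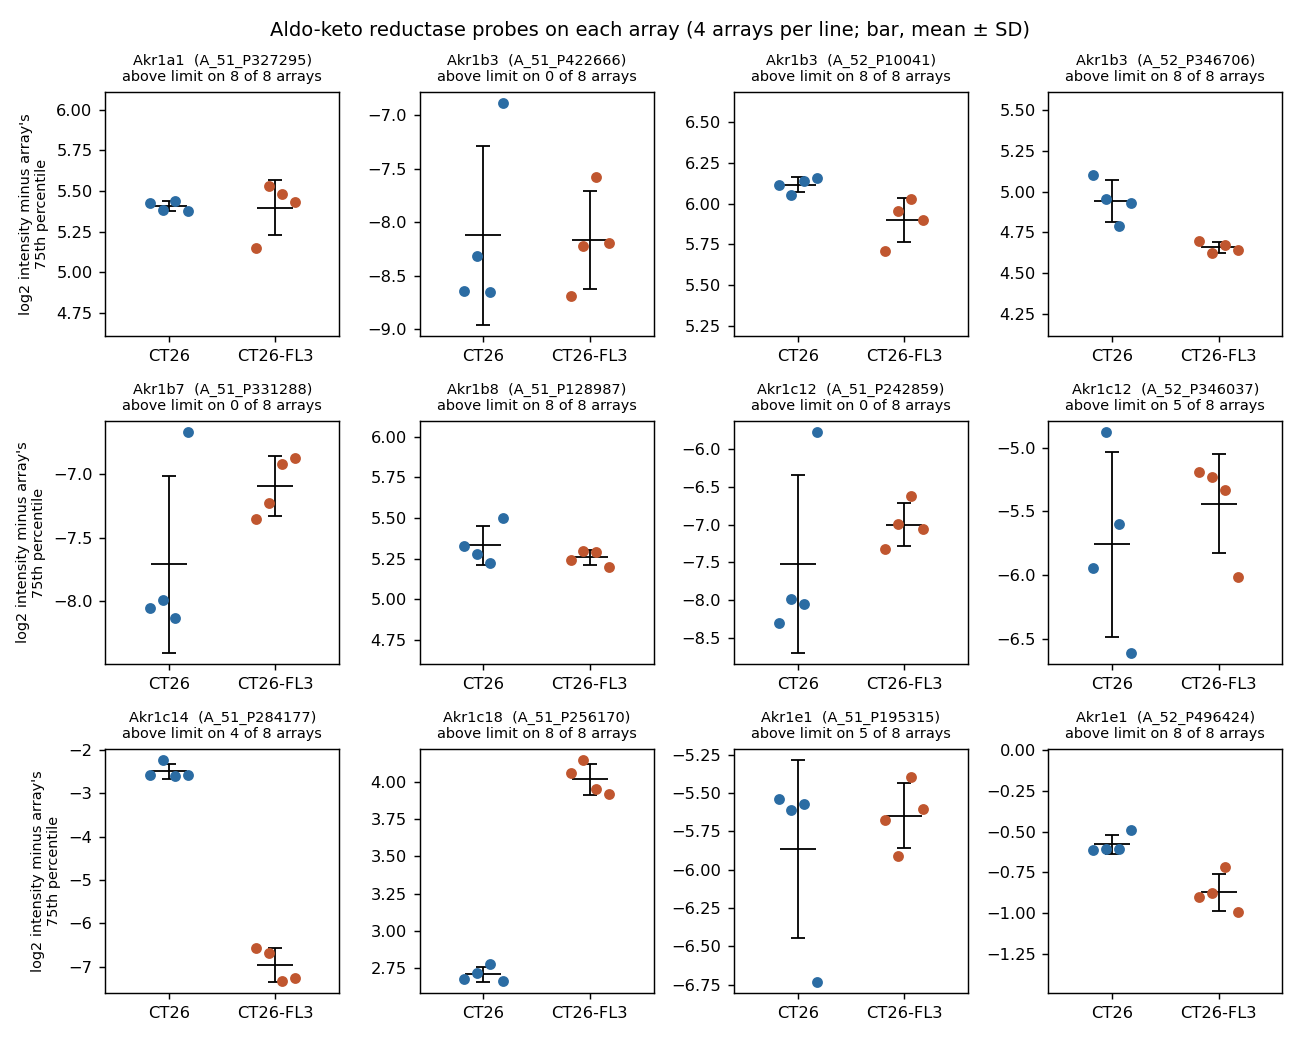
Each panel is 1 probe, named by its gene and array design ID, with a point for every array (blue CT26, orange CT26-FL3, 4 each) and a bar for the mean and SD. The y axis is log2 intensity minus the array's 75th percentile, with its own range in each panel, and Akr1c14 and Akr1c18 show the widest gaps between the lines among probes above the limit on at least 4 arrays.

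Akr1c14 encodes a 3α-hydroxysteroid dehydrogenase, which reduces dihydrotestosterone and other 3-ketosteroids. Its probe read 142, 244, 147 and 136 units on the CT26 arrays 1 to 4. On the CT26-FL3 arrays it read 8.54, 8.14, 5.48 and 5.95 units. All CT26 arrays were above the limit and all CT26-FL3 arrays below it, with no overlap. CT26 array 2 was the highest, and that array also had the highest 75th percentile. Akr1c14 was at least 8.69-fold lower in CT26-FL3, where the CT26-FL3 level is set, per array, to the dimmest signal that still exceeded the limit there. The measured log2 means were -2.50 ± 0.17 (SD, n = 4) in CT26 and -6.97 ± 0.39 (SD, n = 4) in CT26-FL3. The fitted log2 difference was -4.47 (SE 0.18, limma adjusted p = 3.12e-07), and it was -1.82 when a constant of 50 was added before the log, so its size depends on values under the limit. Since the probe was kept through its CT26 arrays alone, it had to differ, and this adjusted p is no support.

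Akr1c18 encodes the 20α-hydroxysteroid dehydrogenase that converts progesterone to a less active form, a step known for ending luteal progesterone action in rodents. Its probe read 5453, 7583, 6107 and 5119 units on the CT26 arrays. The CT26-FL3 arrays gave 13592, 14890, 13687 and 13716 units. Every CT26-FL3 array lay above every CT26 array. Akr1c18 rose 2.47-fold, a log2 difference of 1.31 (SE 0.06, limma adjusted p = 7.30e-07). The log2 means were 2.71 ± 0.05 (SD, n = 4) in CT26 and 4.02 ± 0.10 (SD, n = 4) in CT26-FL3. The probe was above the limit on all 8 arrays, and leaving out any single array kept the difference between 1.26 and 1.34.

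Akr1c12 encodes another hydroxysteroid dehydrogenase of the run and had a pair of probes. The probe A_52_P346037 read 13.8, 39.3, 18.4 and 8.24 units in CT26 and 22.4, 22.4, 22.04 and 14.1 units in CT26-FL3. It was above the limit on 2 CT26 and 3 CT26-FL3 arrays, and the lines overlapped. Its log2 difference was 0.32 (SE 0.35, limma adjusted p = 0.483). The other probe, A_51_P242859, was above the limit on no array. Whether Akr1c12 differed between the lines was not detectable at these signals.

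Akr1e1 encodes a reductase of 1,5-anhydro-D-fructose, a breakdown product of glycogen, and closes the chromosome 13 run. The probe A_52_P496424 read 555, 757, 585 and 575 units in CT26 and 437, 459, 538 and 456 units in CT26-FL3. After scaling by the 75th percentile, CT26 arrays lay at log2 values of -0.62, -0.61, -0.61 and -0.49, and CT26-FL3 arrays at -0.90, -0.87, -0.72 and -0.99. The scaled values did not overlap. Akr1e1 fell by 0.29 on this probe (log2, SE 0.07, limma adjusted p = 0.00599). The second probe, A_51_P195315, was above the limit on 3 CT26 and 2 CT26-FL3 arrays, with 7.61 to 23.5 units in CT26 and 13.98 to 21.05 in CT26-FL3. It differed by 0.22 (SE 0.26, limma adjusted p = 0.528), in the other direction, and the lines overlapped. This sign was not stable, since the difference was -0.072 without CT26 array 4 and -0.22 within replicates 1 and 2, against 0.65 within replicates 3 and 4.

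Akr1b3 encodes aldose reductase, the entry enzyme of the polyol pathway, and had 3 probes. The probe A_52_P10041 read 58807, 76554, 62856 and 57773 units in CT26 and 42612, 52114, 57930 and 54260 units in CT26-FL3. Scaled log2 values were 6.11, 6.05, 6.14 and 6.16 in CT26 and 5.71, 5.95, 6.03 and 5.90 in CT26-FL3. The highest CT26-FL3 array lay just under the lowest CT26 array. The difference was -0.22 (SE 0.07, limma adjusted p = 0.0323), and this call was lost with median centring (adjusted p = 0.125) and when any of 5 of the 8 arrays was left out, namely CT26 arrays 1, 3 and 4 and CT26-FL3 arrays 1 and 4 (0.0513 to 0.0734).

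The second Akr1b3 probe, A_52_P346706, read 29216, 35644, 24568 and 24637 units in CT26 and 21151, 20704, 22605 and 22606 units in CT26-FL3. All scaled CT26 values, 4.79 to 5.10, lay above all CT26-FL3 values, 4.62 to 4.70. Akr1b3 fell by 0.29 on this probe (SE 0.07, limma adjusted p = 0.00795), and the call held without any single array but not within replicates 3 and 4 (0.155). The third probe, A_51_P422666, designed on a separate transcript record, was above the limit on no array. The detected probes of aldose reductase thus shared a direction, with 0.859 and 0.820 times the CT26 level.

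Akr1b8 encodes an enzyme induced by fibroblast growth factor that reduces retinaldehyde and other aldehydes. Its probe read 34092, 44766, 33243 and 36571 units in CT26 and 30920, 33113, 34772 and 33368 in CT26-FL3. The lines overlapped after scaling, with a log2 difference of -0.07 (SE 0.07, limma adjusted p = 0.395). Akr1b7, an aldose reductase-like gene known from vas deferens and adrenal cortex, had a probe that was above the limit on no array, at 3.18 to 7.94 units. No fold is given for it.

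Akr1a1 encodes aldehyde reductase, which makes gulonate for ascorbate synthesis in mice. Its probe read 36469, 48143, 38677 and 33591 units in CT26 and 28908, 38856, 39596 and 39146 units in CT26-FL3. CT26-FL3 array 1 was the lowest after scaling and each of the other CT26-FL3 arrays lay above at least 3 CT26 arrays. The log2 difference was -0.01 (SE 0.08, limma adjusted p = 0.935). Its sign turned under median centring, quantile normalization and the authors' value table. It also turned within replicates 3 and 4 and without CT26 array 3 or CT26-FL3 array 1.

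**Figure D2:**
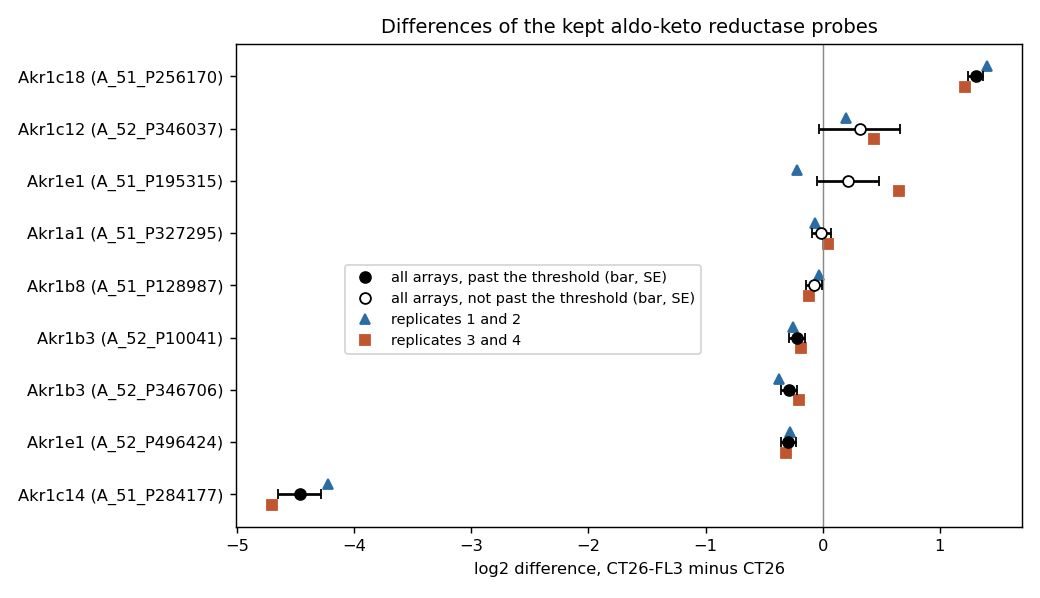
Points are log2 differences of CT26-FL3 minus CT26 on the x axis for the 9 kept member probes, with bars for the SE of the fit over all 8 arrays. Filled circles passed the threshold and open circles did not, triangles are replicates 1 and 2 alone and squares replicates 3 and 4 alone, and Akr1c14 at -4.47 and Akr1c18 at 1.31 stand far from 0 in all 3.

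The array files carry 2 set numbers, one shared by replicates 1 and 2 of both lines and the other by replicates 3 and 4, so each difference was also taken within a set. Akr1c14 differed by -4.23 in the first set and -4.71 in the second, and Akr1c18 by 1.40 and 1.21. Both passed within each set, where 25% and 24.8% of all kept probes passed. The sets are parts of the contrast known when the genes were chosen, so these passes are no support. In both sets the Akr1c14 readings of CT26-FL3 lay under the limit. The Akr1e1 probe A_52_P496424 differed by -0.28 and -0.31 and passed in neither. The Akr1b3 probes differed by -0.25 and -0.18 (A_52_P10041) and by -0.37 and -0.20 (A_52_P346706), and the latter alone passed, in the first set.

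The difference of a difference between sets was tested as an interaction in limma, a measure not used in choosing the genes. It passed for 0 of 23066 probes (percent called 0) and 647 had an unadjusted p under 0.05. Among member probes Akr1c14 had an unadjusted p of 0.0256, with a second-set minus first-set value of -0.48 (SE 0.17), and its adjusted p was 0.9998. All of its CT26-FL3 readings lay under the limit, and the set values there were -6.58 and -6.69 in the first set and -7.34 and -7.25 in the second, so nothing is read from this value. For Akr1c18 the sets differed by -0.19 (SE 0.11, unadjusted p = 0.121).

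The remaining aldo-keto reductase genes give the setting of the runs. Of 11 such genes on the array 5 were tested, of which 1 was higher and 2 lower while 2 missed the threshold (of all genes at their brightest probe 48.8% passed, 23.8% higher and 25% lower). Akr1b10, beside Akr1b8 on chromosome 6, fell by 0.41 (SE 0.06, limma adjusted p = 0.000904), and its 3 kept probes ranged from -0.52 to -0.40. Akr1c21, beside Akr1e1, differed by -0.24 (SE 0.16, limma adjusted p = 0.249), and Akr7a5 by -0.02. Akr1c6, Akr1c20, Akr1cl and Akr1d1 were above the limit on no array, and Akr1c19 and Kcnab3 on 1. The potassium channel beta subunits belong to the same superfamily by fold. Kcnab2 fell by 2.33 (SE 0.07) and Kcnab1 rose by 1.43 (SE 0.09) on its kept probe. The other Kcnab1 probes, A_51_P320291 and A_52_P738970, were above the limit on no array.

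**Figure D3:**
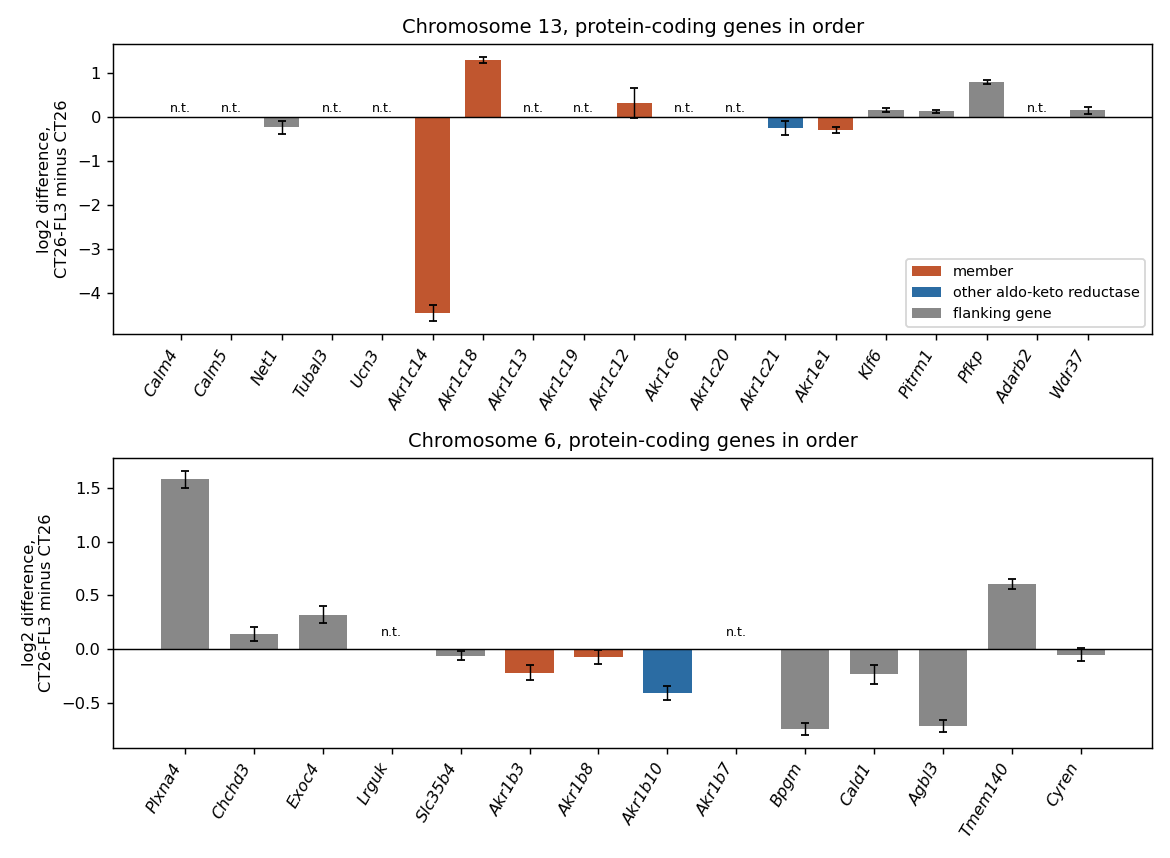
Bars are log2 differences of CT26-FL3 minus CT26 with the SE, for protein-coding genes in their order along both runs with 5 genes on each side, and n.t. marks genes not tested. Members are orange, other aldo-keto reductases blue and flanking genes grey; Akr1c14 and Akr1c18 lie side by side with opposite signs, and Akr1b3 is shown by the probe A_52_P10041.

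Genes flanking the chromosome 13 run had smaller fitted differences than Akr1c14 and Akr1c18. Of 10 such genes 5 were tested, of which 3 were higher and 0 lower while 2 missed the threshold, in a range of -0.23 (Net1) to 0.80 (Pfkp). Around the chromosome 6 run 9 of 10 were tested, of which 3 were higher and 2 lower while 4 missed the threshold, from -0.74 (Bpgm) to 1.58 (Plxna4). The share over all genes at their brightest probe was 48.8%, with 23.8% higher and 25% lower.

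Genes around the members in metabolism were counted in lists written with earlier results of these data known, with the brightest kept probe for each gene. To set beside each list here and below, the median of all genes was -0.01, and 48.8% of them passed, 23.8% higher and 25% lower. Of 10 regulators of NRF2, 4 were higher, 3 lower and 3 not past the threshold (median 0.03). Nfe2l2, which encodes NRF2, differed by 0.20 (SE 0.05, limma adjusted p = 0.0135), but its 4 kept probes ranged from -0.19 to 0.28, and the call was lost in 4 of 21 alternatives, within both array sets among them (0.247 and 0.093). Keap1, the adaptor that targets NRF2 for degradation, fell by 0.36 (SE 0.07). Rbx1, of the same ligase, fell by 0.34 (SE 0.06), and Mafk, a partner of NRF2 and Bach1, rose by 0.51 (SE 0.05). Bach1, a repressor at NRF2 sites, differed by -0.38 (SE 0.11, limma adjusted p = 0.0229) with overlapping lines. Its call was lost in 8 of 21 alternatives, among them those without CT26 array 1, 3 or 4 or CT26-FL3 array 1 or 2 (0.0568 to 0.0607). Of 30 NRF2 targets outside the members 5 were higher, 17 lower and 8 not past the threshold (median -0.18). The quinone reductase gene Nqo1 lay between 629 and 944 units in CT26 and between 180 and 214 units in CT26-FL3, and it fell by 1.82 (SE 0.06). The glutathione transferase genes Gsta1 and Gstm1 fell by 1.49 (SE 0.14) and fell by 1.28 (SE 0.05), and the cystine transporter gene Slc7a11 rose by 0.95 (SE 0.07).

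Of 21 other carbonyl reducing and oxidising enzymes, 5 were higher, 8 lower and 8 not past the threshold (median -0.08). The aldehyde dehydrogenase gene Aldh1a7 read 125.4 to 165.9 units in CT26 and 14.2 to 17.5 units in CT26-FL3, where 1 of 4 arrays exceeded the limit. Its fitted difference of -3.07 (SE 0.08) thus rests on signals around the limit, and it was -1.46 with a constant of 50 added before the log. Aldh1a1, which oxidises retinaldehyde, fell by 0.96 (SE 0.05). Rdh11, a retinal reductase, fell by 0.74 (SE 0.06). Cbr2, a carbonyl reductase known from mouse lung, was above the limit on the CT26 arrays alone and was at least 1.78-fold lower in CT26-FL3. Like Akr1c14 it was kept through its CT26 arrays alone, so it had to differ, and its limma adjusted p of 2.51e-05 is no support.

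In polyol and methylglyoxal handling of 11 genes 3 were higher, 4 were lower and 4 missed the threshold (median -0.15). Sord, the enzyme that follows aldose reductase and makes fructose from sorbitol, fell by 0.51 (SE 0.07, limma adjusted p = 0.000354), with 96.5 to 146 units in CT26 and 66.5 to 80.5 in CT26-FL3. Khk, which phosphorylates fructose, fell by 0.90 (SE 0.05). Hexokinase 2, Hk2, and Gfpt1, the entry enzyme of the hexosamine pathway, rose by 0.76 (SE 0.07) and 0.38 (SE 0.06).

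In prostaglandin and progestin metabolism, the setting of Akr1c14 and Akr1c18, of 17 genes 1 was higher, 8 were lower and 8 missed the threshold (median -0.14). The prostaglandin D synthase gene Ptgds fell by 2.53 (SE 0.09), the thromboxane synthase gene Tbxas1 fell by 1.21 (SE 0.10), and Srd5a1, the steroid 5α-reductase that makes substrates of 3α-hydroxysteroid dehydrogenases, fell by 1.18 (SE 0.06). Hsd17b7, a ketosteroid reductase of cholesterol synthesis, fell by 1.40 (SE 0.07). With the constant of 50 the differences of dim probes were smaller, at -0.67 for Gsta1, -0.63 for Tbxas1 and -0.31 for Sord.

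**Figure D4:**
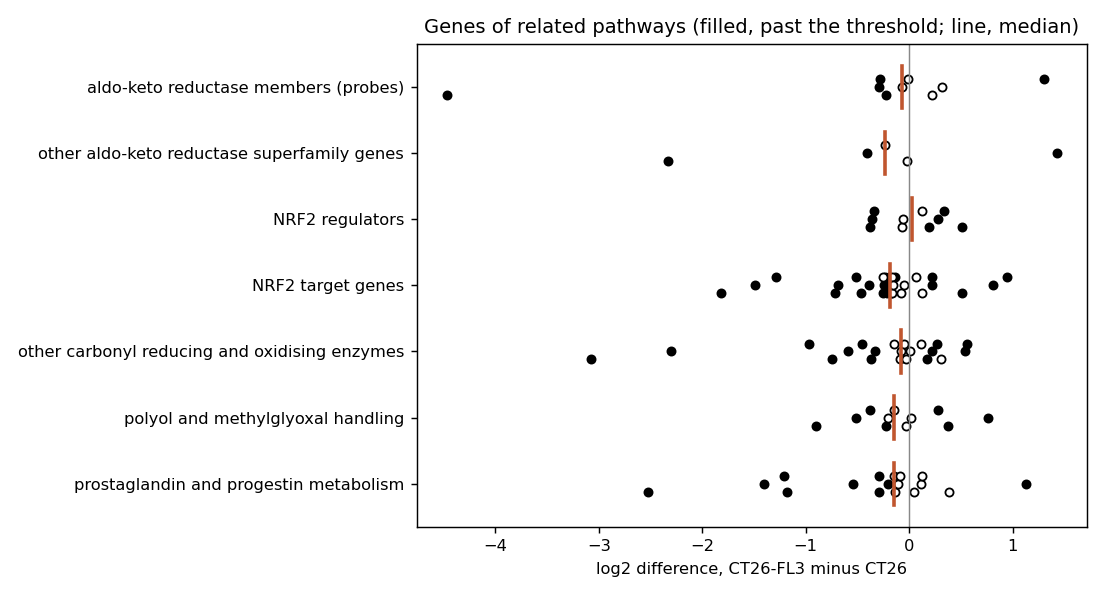
Each point is a probe of a member (top line) or a gene of a related list, placed by its log2 difference of CT26-FL3 minus CT26 on the x axis. Filled points passed the threshold, open points did not and the orange line is the median, which was -0.07 for the member probes and -0.18 for NRF2 targets.

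The genes most like Akr1c14 across the 8 arrays were ranked by Pearson correlation of log2 values among 12570 genes with a symbol. They were Renbp (r = 0.999), Hmgcs1 (0.999), Car5b (0.998), Ccpg1 (0.998) and Larp6 (0.998), and 143 genes had r above 0.99. All points share the arrays and their scaling, and the difference between lines sets most of this likeness. By deviations from the line means the highest were Fbxl17 (0.989), Adgrf3 (0.989), Txndc15 (0.976), Hibadh (0.964) and Fndc11 (0.963). These deviations include Akr1c14 values below the limit in CT26-FL3, and both rankings are descriptions.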

How the data were processed

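RNA of 4 CT26 and 4 CT26-FL3 samples was hybridised to one-colour (Cy3) arrays of 45018 spots, read with Agilent Feature Extraction per the submitters' processing notes (no version given there). The deposited intensity values are the scanner's signals per spot, per the file headers. Local background had already been subtracted, as the values show, since negative controls had medians of 2.23 to 7.43 units and the background column 21.1 to 24.4. The authors' deposited value table holds log2 values centred per probe (every probe median within 9.55e-07 of 0). These correlated with log2 scanner signals at 0.989 to 0.998 over 16419 bright probes, its array medians lay between -0.0148 and 0.0167, and its exact normalization stays unknown. It served as an alternative.

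The 1639 control spots and spots marked as failed (3 to 76 gene spots an array) were left out, and replicate spots of a probe were averaged, giving 41174 probes. The 75th percentile was subtracted on the log2 scale. Probes above 2.6 times the median per-spot SD of the 153 negative controls on at least 4 of 8 arrays were kept. They were fitted together in limma 3.58.1 (R 4.3.3) with lmFit and eBayes, two-sided, with Benjamini-Hochberg adjustment over all 23068. The script was tested on simulated data. Symbols came from the platform annotation updated through RefSeq, otherwise from the files. Saturation was not judged here. The members and lists were chosen with earlier results of these data known. Named genes were every member probe, up to 4 genes with the largest change past the threshold in each related list, Nqo1, Nfe2l2, Keap1, Sord and Hsd17b7 in any case, and the genes most like Akr1c14. Flanking genes were named at the ends of their range after their values were seen. Samples were not treated as pairs by their replicate numbers (correlations of same-numbered deviations from line means of -0.0211 to 0.134 for the sample-name numbers and -0.2 to 0.146 for the title numbers). Alternatives were median centring, quantile normalization, a constant of 50, other filters, the brightest probe, the value table, blocks, each array set alone and each array left out.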

Additional observations from a re-analysis of the deposited data

Results flagged for a closer look

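In 24 groups of 4 arrays, 1 for each member probe and line, an array was looked for whose gap to its nearest neighbour exceeded Dixon's critical share of the group's range. Of the 24 groups 5 met it, all in CT26. Chance flags about 1 in 20 independent groups, but these groups share the same arrays, so the count cannot show an excess. For Akr1c14, CT26 array 2 lay above the others with a gap of 0.929 of the range, at a log2 value of -2.24 against -2.60 to -2.58, and without it the difference between lines was -4.38. CT26 array 4 stood apart for the other 4 probes. It lay above the others for Akr1e1 probe A_52_P496424 (0.920) and for probes above the limit on no array, Akr1b7 (0.905) and Akr1c12 probe A_51_P242859 (0.874). It lay below the others for Akr1e1 probe A_51_P195315 (0.939). CT26 array 4 also had the highest limit, 23.2, and the highest median of negative controls, 7.43 units, and the part of this in the flags was not tested.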

How the results depend on the processing

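Akr1c14 and Akr1c18 kept their direction and passed in every alternative in which they were fitted, 20 and 21. The alternatives reuse the contrast known when the genes were chosen, and Akr1c14 was kept through its CT26 arrays alone. These passes are therefore a description and no support. The count of member probes past the threshold was 5. It was 4 to 5 when 1 array was left out, 3 with a replicate block by the numbers in the titles (Akr1c14, Akr1c18, Akr1e1), 4 with a replicate block by the sample-name numbers, 3 within replicates 1 and 2 (Akr1b3, Akr1c14, Akr1c18) and 2 within replicates 3 and 4 (Akr1c14, Akr1c18), where fewer arrays enter. Of the 8 samples 1 correlated best with the sample of its own sample-name number. With few candidates per sample this check cannot decide whether the samples were paired. The filter of all 8 arrays leaves Akr1c14 untested and gave 4. Over all kept probes 11131 passed, 5756 within replicates 1 and 2, 5728 within replicates 3 and 4, and 10056 to 10696 with 1 array left out. In the related lists 5, 10, 30, 21, 11 and 17 genes were tested. Of these genes 61 passed, 32 and 36 within the sets, and 51 to 59 with 1 array left out. Of all genes at their brightest probe 48.8% passed, and within the sets 25% and 24.8% of all kept probes. The lists were written with earlier results of these data known, so nothing is read from these counts. The interaction called 0 in all 11 alternatives.

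The Akr1b3 probe A_52_P10041 lost its call in 11 of 21 alternatives (adjusted p 0.0177 to 0.171), A_52_P346706 in 2 of 20 (0.0514 with the replicate block by title numbers and 0.155 within replicates 3 and 4) and the Akr1e1 probe A_52_P496424 in 2 of 21. Besides Bach1 and Nfe2l2, calls of named genes were lost within replicates 1 and 2 (Keap1, Rbx1, Akr1b10, Gfpt1; adjusted p 0.0568 to 0.125) and within replicates 3 and 4 (Rbx1, 0.0593). Nfe2l2 also missed without the filter (0.0594) and with the title-number block (0.0827), and Bach1 without the filter (0.0777) and within the sets (0.0706 and 0.0507). Differences near 0 turned sign. Akr1a1 was 0.0054 with median centring, 0.037 with quantile normalization, 0.031 in the value table, 0.047 within replicates 3 and 4, and -0.054 to 0.073 with 1 array left out. The Akr1e1 probe A_51_P195315 was -0.22 within replicates 1 and 2 and -0.072 to 0.33 with 1 array left out. The cause was not tested. Signals near the limit bound what can be said of Akr1c12, Akr1b7 and the second Akr1e1 probe.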
